A study of Homo sapiens with 6 samples.

Results

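Type I interferon-stimulated genes are the genes that cells switch on when interferon alpha or beta reaches them, and most of their products block viruses. A list of 50 such genes was examined in Huh-7 cells, an established human hepatocellular carcinoma line, with and without stable overexpression of RAC3, a small GTPase. The list holds effectors, RNA sensors and regulators of the response, chosen by symbol from the 20332 genes of the deposited table, without guanylate-binding and MHC genes. Of the 50 genes, 49 were found under the listed symbol, and DDX58 was found under its current symbol RIGI. Poly(A) RNA was sequenced from 3 samples with RAC3 overexpression and 3 negative controls, all without any interferon or virus treatment named in the labels. RAC3 was delivered by lentivirus. The labels give the controls as WT and do not say whether they carried a control virus, and whether the stable line was 1 clone was not given in the sources used here. The genotype labels of RAC3 overexpression samples 2 and 3 name RAC4 and RAC5, while their titles and the measured RAC3 level name RAC3.

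In the canonical pathway, interferon binds the receptor pair IFNAR1 and IFNAR2, the kinases JAK1 and TYK2 phosphorylate STAT factors, and these join IRF9 to form the complex ISGF3. ISGF3 binds the interferon-stimulated response element, a short repeat of GAAA in the promoters of its target genes. Cytosolic RNA sensors of the RIG-I family act upstream of interferon, and in many tumour cells a part of these genes is expressed without added interferon. Hepatocytes and hepatoma cells can carry out this response and have long been used to study it in viral hepatitis.

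RAC3 itself had 35.6, 31.4 and 32.8 CPM in the controls and 233, 240 and 225 in the RAC3 samples, a log2 fold change of 2.81 (SE 0.0574). CPM are counts per 1000000 counts of a library, here with TMM scaling, and compare 1 gene between samples. The 6 libraries held between 13855762 and 18199888 counts, so that a gene with 0 counts could still stand at up to 0.165 to 0.217 CPM (3 counts). Hepatocyte markers summed to 3194 to 3595 FPKM in the RAC3 samples and 3483 to 3599 in the controls, while leukocyte markers summed to 29.8 to 30.4 and 29.6 to 35.2, mostly CD14, with CD3E and NKG7 at or near 0. Endothelial markers stayed at or below 1.22 FPKM in every sample. Fibroblast markers, mainly LUM, summed to 88.7 to 95.4 FPKM in the RAC3 samples and 75.2 to 80.6 in the controls, with DCN near 0. These sums hide opposite changes. At an adjusted p-value below 0.05 by edgeR, LUM and COL1A2 were higher and COL1A1 was lower, of 5 fibroblast markers tested. Of 3 leukocyte markers tested, CD68 was higher (0.47 on the log2 scale) and CD14 was lower (-0.37). Of the 10 hepatocyte markers, 3 were higher and 3 were lower, beside 13.3% and 15.3% of all genes tested. The part of these markers in the results was not tested. In bulk RNA, fewer cells expressing a gene and less RNA per cell cannot be told apart.

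Of the 50 interferon-stimulated genes, 34 had enough counts to be tested, and 6 of these were higher in RAC3-overexpressing cells at an adjusted p-value below 0.05. They were PARP9, DTX3L and PARP14, which lie within 1 cluster on chromosome 3, and OAS3, SAMD9 and SP100. None of the 34 was lower, by edgeR, DESeq2 or limma-voom. The 6 genes are 17.6% of those tested, beside 13.3% of all 12941 genes tested that were called higher, so the share of higher calls was not far from that of the whole table. For lower calls the share was 0 of 34, beside 15.3% of all genes. At an unadjusted p-value below 0.05, 9 of the 34 were higher and 3 were lower. A gene can pass the count filter through the group in which it is high, so these shares describe the genes that passed, not the list.

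The base sequence around the start of these genes was read as well. The list was chosen as interferon-stimulated genes, so a high share with the element that ISGF3 binds comes with that choice. The windows below run from 250 bases before to 50 bases after the annotated start and come from RefSeq, build GRCh38.p14, each read 5′ to 3′ on the strand of its gene. Capitals mark the core of the interferon-stimulated response element, searched as 2 copies of GAAA separated by 2 bases of any kind, on either strand, with overlapping matches kept. The first 5 are genes called higher, with SP100 shown because it holds no match. ISG15 is shown as the textbook interferon-stimulated gene that was not called. The regions are chr3:122564088-122564387 (+) for DTX3L, chr3:122680589-122680888 (+) for PARP14, chr12:112938224-112938523 (+) for OAS3, chr7:93117930-93118229 (-) for SAMD9, chr2:230415951-230416250 (+) for SP100 and chr1:1013247-1013546 (+) for ISG15.
DTX3L: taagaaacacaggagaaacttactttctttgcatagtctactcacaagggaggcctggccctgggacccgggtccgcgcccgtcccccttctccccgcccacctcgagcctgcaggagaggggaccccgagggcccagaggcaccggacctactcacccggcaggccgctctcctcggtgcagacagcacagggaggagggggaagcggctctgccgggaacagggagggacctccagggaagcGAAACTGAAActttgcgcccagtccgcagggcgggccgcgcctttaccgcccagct
PARP14: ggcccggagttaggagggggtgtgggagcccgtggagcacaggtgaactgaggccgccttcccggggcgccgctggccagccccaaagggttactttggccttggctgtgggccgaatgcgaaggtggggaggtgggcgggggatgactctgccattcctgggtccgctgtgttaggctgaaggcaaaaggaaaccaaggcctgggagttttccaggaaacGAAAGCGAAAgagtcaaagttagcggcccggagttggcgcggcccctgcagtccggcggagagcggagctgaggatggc
OAS3: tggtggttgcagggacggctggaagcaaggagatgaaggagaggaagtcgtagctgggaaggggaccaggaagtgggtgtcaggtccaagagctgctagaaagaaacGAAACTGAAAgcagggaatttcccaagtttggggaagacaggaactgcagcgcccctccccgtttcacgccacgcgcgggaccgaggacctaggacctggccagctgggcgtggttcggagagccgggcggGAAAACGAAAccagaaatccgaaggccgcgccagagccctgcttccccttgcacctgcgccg
SAMD9: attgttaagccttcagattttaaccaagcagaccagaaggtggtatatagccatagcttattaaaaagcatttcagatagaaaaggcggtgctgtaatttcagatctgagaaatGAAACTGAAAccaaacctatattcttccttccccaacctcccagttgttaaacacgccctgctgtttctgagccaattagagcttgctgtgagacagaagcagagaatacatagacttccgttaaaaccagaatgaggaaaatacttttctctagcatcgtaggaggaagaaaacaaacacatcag
SP100: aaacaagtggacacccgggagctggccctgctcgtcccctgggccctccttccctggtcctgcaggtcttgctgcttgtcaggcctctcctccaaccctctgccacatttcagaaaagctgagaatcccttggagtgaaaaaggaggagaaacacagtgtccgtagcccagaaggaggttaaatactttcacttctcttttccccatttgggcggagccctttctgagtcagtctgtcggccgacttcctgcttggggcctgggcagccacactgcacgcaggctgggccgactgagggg
ISG15: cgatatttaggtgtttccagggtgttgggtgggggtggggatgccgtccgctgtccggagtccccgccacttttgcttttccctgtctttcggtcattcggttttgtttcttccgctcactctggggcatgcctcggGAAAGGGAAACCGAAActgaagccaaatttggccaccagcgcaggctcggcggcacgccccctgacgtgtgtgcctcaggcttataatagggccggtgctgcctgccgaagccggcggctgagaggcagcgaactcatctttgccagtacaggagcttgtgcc

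Windows were found for 41 of the 50 genes, and 28 of these 41 (68.3%) held the response element core, against 4.38% of all 27305 genes in the RefSeq set and 3.57% of their 35116 windows. The core was in 5 of the 6 genes called higher, in 16 of the 24 matched genes that were tested and not called, and in 7 of the 11 matched genes with too few counts to test. The core was thus present in genes that were called and in genes that were not. A second element, TTC and GAA separated by 3 bases of any kind, which is the core of the gamma-activated site, was in 8 of the 41 genes (19.5%), against 9.38% of all genes and 7.66% of all windows. It was in PARP14 alone among the 6 genes called higher. A match is a description of the letters in these windows. It does not show that a factor was bound there.

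**Figure D1:**
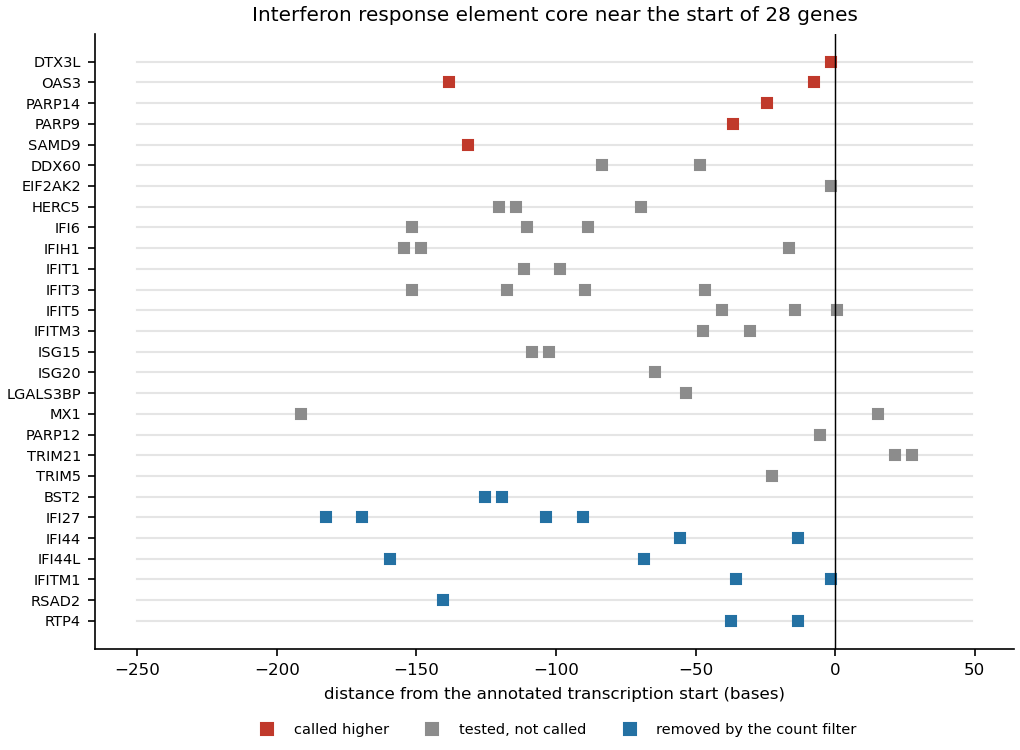
Position of each match to the interferon-stimulated response element core (squares) in bases from the annotated transcription start, for the 28 genes with at least 1 match. A match near more than 1 annotated start of its gene is drawn at each distance, as for IFI44 and IFI27. Grey lines span the window of 250 bases before to 50 after the start. Colours separate the 5 genes called higher, the 16 tested and not called and the 7 removed by the count filter. Matches lie on both sides of the start and in all of these groups.

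PARP9 and DTX3L stood out by the size of the change relative to its error. PARP9 is an ADP-ribosyltransferase family member that works as a partner of the ubiquitin ligase DTX3L, and the pair promotes interferon signalling and DNA repair. PARP9 had 23.9, 25.2 and 22.8 CPM in controls 1, 2 and 3 and 38.4, 33.8 and 33.1 CPM in RAC3 samples 1, 2 and 3. The lowest RAC3 sample was above the highest control. Its fold change was 1.47, a log2 fold change of 0.55 (SE 0.0815, adjusted p = 5.61e-05 by edgeR's quasi-likelihood test). DTX3L had 47.1, 50.5 and 50.8 CPM in the controls and 71.4, 63.7 and 64.3 CPM in the RAC3 samples, again without overlap. Its fold change was 1.34, a log2 fold change of 0.43 (SE 0.0642, adjusted p = 7.11e-05, same test). RAC3 sample 1 was the highest for both genes.

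These genes share a control region. PARP9 (ENSG00000138496, chr3:122527924-122564577, minus strand) and DTX3L (ENSG00000163840, chr3:122564238-122575203, plus strand) are transcribed away from each other, and their RefSeq starts, at 122564300 and 122564338, lie 38 bases apart. Their windows share 137 bases and hold the same response element core, at chr3:122564332-122564341, which is printed above in capitals in the DTX3L window. In the annotation, 217 exonic bases of the pair overlap on opposite strands. The library kit does not mark strand, so reads from that overlap cannot be assigned to either gene, and their part in the results was not tested.

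PARP14 (ENSG00000173193, chr3:122680618-122730840, plus strand), a larger ADP-ribosyltransferase induced by interferon, was called with less margin. It had 17.2, 16.8 and 19.5 CPM in the controls and 23.9, 21.9 and 21.5 CPM in the RAC3 samples. The groups did not overlap. The fold change was 1.26, a log2 fold change of 0.33 (SE 0.0933, adjusted p = 0.0123 by edgeR). The call was lost in some other fits. Its adjusted p was 0.0633 without control sample 2, 0.0629 without RAC3 sample 1, 0.0679 after removal of the trend with GC content and 0.0928 with limma on FPKM, and was as low as 0.00419 over the 16 other fits. PARP12, a further family member encoded on chromosome 7, stood at 42.6, 48.2 and 46.8 CPM in the controls and 44.2, 49.1 and 50.9 CPM in the RAC3 samples. The groups overlapped, and the log2 fold change was 0.06 with a 95% interval from -0.09 to 0.21.

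OAS3 (ENSG00000111331, chr12:112938352-112973249, plus strand) makes oligoadenylates that switch on the antiviral nuclease RNase L when double-stranded RNA is present. It had 18.0, 19.7 and 17.2 CPM in the controls and 22.0, 26.2 and 25.1 CPM in the RAC3 samples, with no overlap and RAC3 sample 2 the highest. The fold change was 1.33, a log2 fold change of 0.42 (SE 0.0943, adjusted p = 0.00271 by edgeR). Its neighbour OAS1, an enzyme of the same kind, had 2.15, 3.06 and 1.67 CPM in the controls and 3.43, 4.01 and 2.70 CPM in the RAC3 samples. The estimate for OAS1 was 0.57 on the log2 scale, larger than that of OAS3, but the groups overlapped and the adjusted p was 0.118. OAS2, the third gene of the cluster, had 0 counts over the 3 controls and 4 over the 3 RAC3 samples, and OASL had 11 and 13. Both were too low to test.

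SAMD9 (ENSG00000205413, chr7:93099513-93118023, minus strand), a growth-restraining antiviral protein that blocks poxviruses, had the largest log2 fold change of the 34 genes and one of the lowest levels. It had 11, 20 and 27 counts in the controls and 53, 41 and 39 in the RAC3 samples, which is 0.788, 1.33 and 1.51 CPM against 2.98, 2.49 and 2.77 CPM. The groups did not overlap. The fold change was 2.23, a log2 fold change of 1.16 (SE 0.303, adjusted p = 0.00735 by edgeR). The call did not hold with limma on FPKM (log2 change 0.81, adjusted p = 0.0976), the highest over 16 other fits, of which the lowest was 0.00298. Its paralogue SAMD9L, the next gene on the chromosome, had 0 counts in all 6 samples.

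SP100 (ENSG00000067066, chr2:230415942-230544090, plus strand) is a component of PML nuclear bodies, which silence incoming viral DNA. It had 16.5, 16.8 and 16.9 CPM in the controls and 23.0, 19.2 and 22.5 CPM in the RAC3 samples. The controls lay close together, and every RAC3 sample was above them. The fold change was 1.29, a log2 fold change of 0.36 (SE 0.0958, adjusted p = 0.00765 by edgeR). In the authors' FPKM the groups overlapped, with 7.04 ± 0.652 (SD, n = 3) in the controls and 8.82 ± 1.47 (SD, n = 3) in the RAC3 samples, and the call did not hold (adjusted p = 0.143 by limma, against 0.00263 to 0.0449 in the other 15 fits). Of the TRIM proteins grouped here with SP100, TRIM5 (-0.05) and TRIM21 (0.01) had log2 fold changes close to 0, and neither was called.

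**Figure D2:**
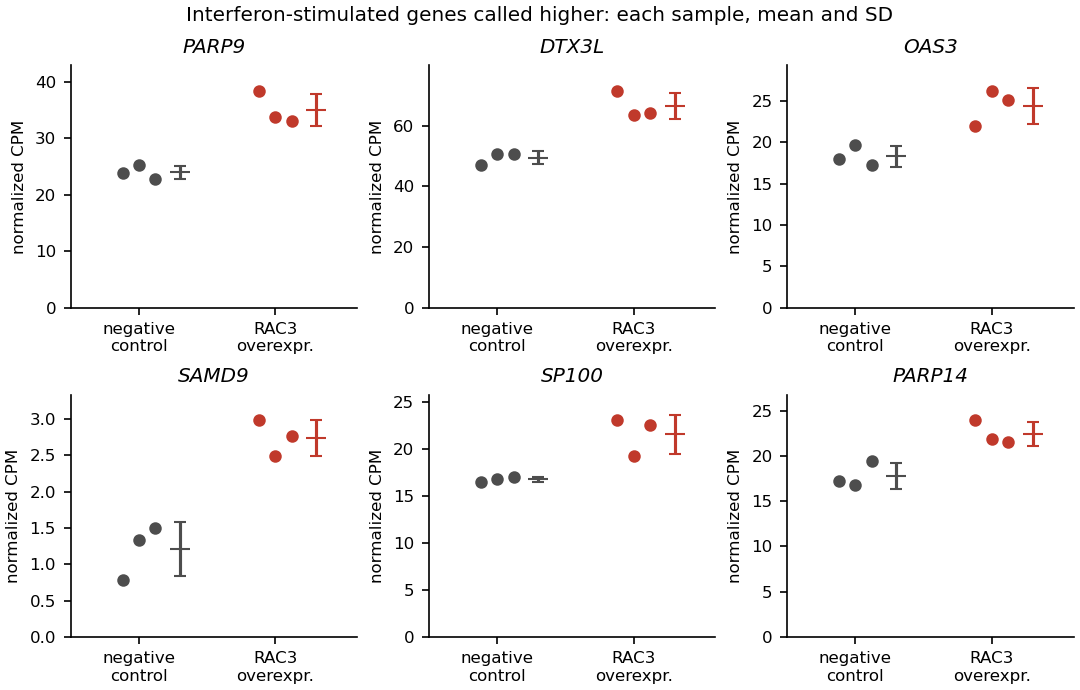
Normalized CPM of the 6 interferon-stimulated genes called higher, in each negative control (dark) and RAC3 overexpression sample (red). Points are samples, and the bar beside them is the mean with its SD (n = 3 per group). Each axis starts at 0. In all 6 genes every red point lies above every dark point, and SAMD9 sits below 3 CPM.

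At the thresholds used by the study, a fold change above 1.5 and an unadjusted p-value below 0.05, 3 of the 34 genes were higher, beside 1.68% of all genes tested, and none was lower, beside 2.99%. These were SAMD9, DDX60 and IFIT3, and none of the other 5 genes called higher reached a fold change of 1.5. All 3 are low genes with a mean of 12.3 to 31.8 counts per sample. The number was 1 without RAC3 sample 2, when only SAMD9 remained, and 5 without RAC3 sample 3. It was also 1, SAMD9 alone, when at least 10 counts were required in every sample. DDX60 and IFIT3 had fewer than that in controls, so 3 of 34 describes the genes that passed the filter, not the list. DDX60, a helicase that assists RNA sensing, had 12, 6 and 12 counts in the controls and 19, 27 and 17 in the RAC3 samples. The log2 fold change of 1.02 had an SE of 0.408 and an adjusted p of 0.0689. IFIT3, which stabilises the RNA-binding protein IFIT1, had 8, 7 and 9 counts in the controls and 23, 17 and 10 in the RAC3 samples. For IFIT3 the log2 fold change of 0.99 had an SE of 0.435 and an adjusted p of 0.0961 in the count test and 0.0337 with limma on FPKM, and up to 0.325 in other fits. For both genes the groups did not overlap.

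Without regard to size, 11 of the 34 genes had groups that did not overlap with RAC3 samples higher, where 20.9% of all genes did, and 2 had RAC3 samples lower, where 21.6% of all genes did. The 11 were the 6 genes called higher with DDX60, IFIT3, IFITM3, HERC6 and ADAR. The 2 lower were IFITM2 and UBE2L6. Point estimates were above 0 in 25 and below 0 in 9 of the 34, over a range of -0.18 to 1.16 on the log2 scale. The median was 0.13, beside 0.00 over all genes tested. It was 0.06 in the 24 tested genes with a mean of 50 counts or more and 0.51 in the 10 with fewer. The median of all genes with as few counts was not computed. DDX60 and IFIT3, each with fewer than 10 counts in at least 1 control, are in these counts and medians. With at least 10 counts required in every sample, the median was 0.12 over 32 genes. These numbers describe the genes that passed the filter, not the list. Taken sample by sample against the control mean, the median of the 34 genes was -0.02, 0.00 and 0.02 in the controls and 0.17, 0.08 and 0.20 in the RAC3 samples. The mean of these same controls was subtracted from each gene, so the control values are held near 0 and are no independent baseline. The median log2 fold change of the 34 genes fell to 0.08 without control sample 3 and rose to 0.18 without control sample 1.

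**Figure D3:**
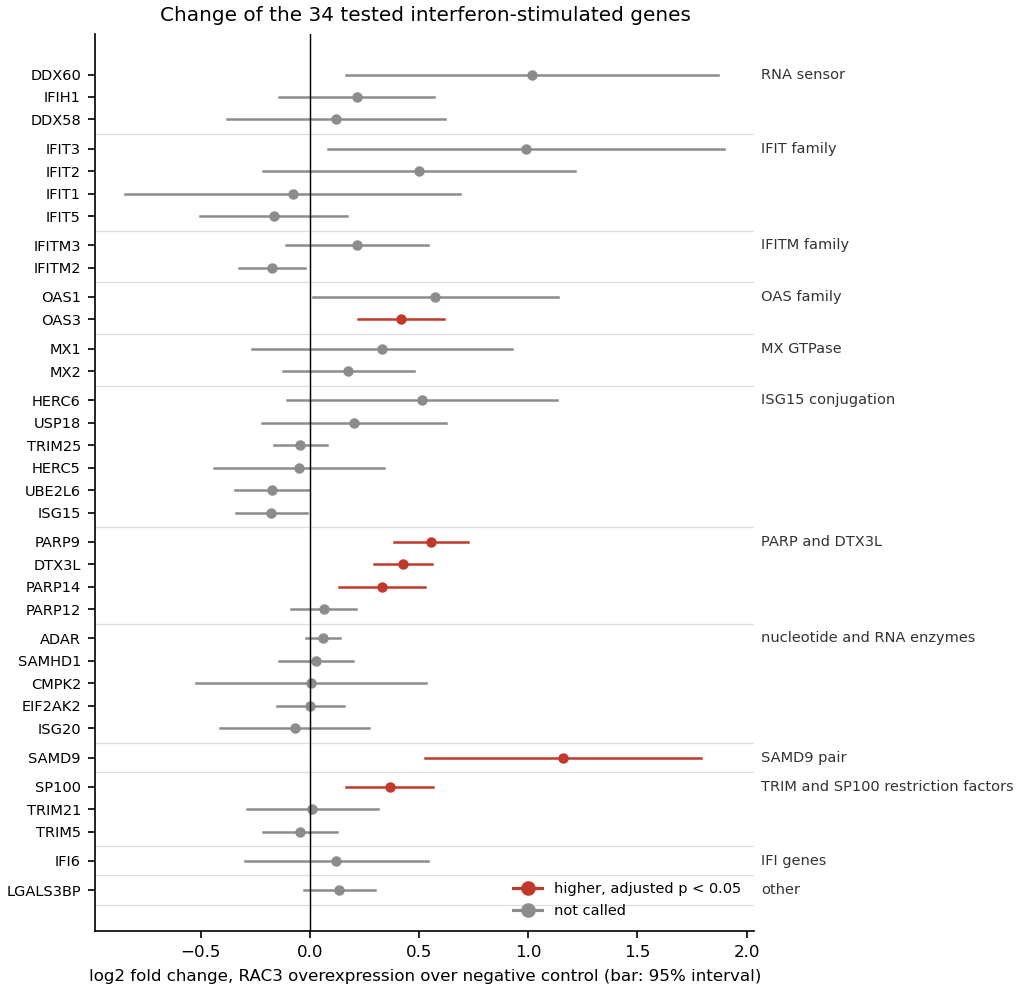
Log2 fold change, RAC3 overexpression over negative control, of the 34 interferon-stimulated genes with enough counts to test, grouped by role. Points are edgeR estimates and bars are 95% intervals. Red marks the 6 genes with an adjusted p-value below 0.05. Most intervals include 0, and the widest belong to low genes such as DDX60, IFIT3 and IFIT1.

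None of the 8 most abundant genes of the list was called. Levels between genes are compared here in FPKM, which are scaled for length. ADAR, the enzyme that edits adenosine to inosine in double-stranded RNA, led with 102 ± 3.19 FPKM (SD, n = 3) in the controls and 112 ± 5.86 in the RAC3 samples. In CPM it stood at 526, 515 and 508 in the controls and 537, 537 and 543 in the RAC3 samples, without overlap. The log2 fold change of ADAR was 0.06 with a 95% interval from -0.02 to 0.14, the narrowest of the list, and an adjusted p of 0.237. Scaling by library size alone gave 0.12 with an adjusted p of 0.0192, the lowest over 16 other fits, of which the highest was 0.497.

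ISG15, a ubiquitin-like protein that is attached to other proteins in the antiviral state, was the second most abundant with 65.7 ± 3.66 FPKM (SD, n = 3) in the controls and 60.5 ± 6.23 in the RAC3 samples. It had 41.0, 42.1 and 45.1 CPM in the controls and 34.6, 42.4 and 36.6 CPM in the RAC3 samples. RAC3 sample 2 lay within the control range, and the groups overlapped. The log2 fold change was -0.18 with a 95% interval from -0.34 to -0.01 and an adjusted p of 0.0987. Without RAC3 sample 2 it was -0.27 with an adjusted p of 0.0189, and it turned to 0.02 only after removal of the GC trend (adjusted p = 0.896, the highest of the 16 other fits). UBE2L6, the conjugating enzyme for ISG15, had 28.2, 26.6 and 28.7 CPM in the controls and 26.1, 24.6 and 23.2 CPM in the RAC3 samples. The groups did not overlap, and the log2 fold change was -0.17 (adjusted p = 0.113 by edgeR). Over 10 other fits with all 6 samples it ran from -0.18 to -0.05, with adjusted p up to 0.736.

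None of the 6 genes of ISG15 conjugation was called by edgeR, DESeq2 or limma-voom, and 2 of them, ISG15 and UBE2L6, had an unadjusted p-value below 0.05. Besides ISG15 and UBE2L6 they are the ligases HERC5 (-0.05 on the log2 scale) and TRIM25 (-0.04), the HERC5 relative HERC6 (0.51), and USP18 (0.20), which removes ISG15 and also restrains the interferon receptor. TRIM25, with a mean of 1016 counts per sample, had a 95% interval from -0.17 to 0.08. The interval of HERC6 was much wider, from -0.10 to 1.13, at a mean of 31.2 counts.

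Other families lie side by side in the genome as well. The 4 IFIT genes on chromosome 10, whose products bind foreign RNA ends, were all tested, none was called, and their log2 fold changes ran from -0.17 for IFIT5 and -0.08 for IFIT1 to 0.50 for IFIT2 and 0.99 for IFIT3. The 3 IFITM genes on chromosome 11 encode membrane proteins that hinder virus entry. IFITM2, the most abundant of them, had 36.0, 33.96 and 33.6 CPM in the controls and 29.7, 31.7 and 30.4 CPM in the RAC3 samples, all below the controls. This was a log2 fold change of -0.17 (adjusted p = 0.0785 by edgeR). Over 10 other fits with all 6 samples it ran from -0.18 to -0.07, with adjusted p up to 0.499. IFITM3 had 5.66, 5.86 and 6.41 CPM against 6.81, 6.68 and 7.45 CPM, all above the controls, with a log2 fold change of 0.22 that was not called. IFITM1 had 8 counts over the controls and 23 over the RAC3 samples and was too low to test. IFITM genes are near-identical copies in part of their sequence, so counts could be split between them.

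The MX GTPases, which trap viral nucleocapsids, had log2 fold changes of 0.33 for MX1 and 0.18 for MX2, with overlapping groups for both. The RNA sensors IFIH1 (0.21) and DDX58 (0.12) also had overlapping groups. Of the enzymes acting on nucleotides and RNA, EIF2AK2, the kinase that halts translation on double-stranded RNA, had a log2 fold change of 0.00 with a 95% interval from -0.15 to 0.16. SAMHD1, which depletes nucleotides, had 0.03 with an interval from -0.14 to 0.20. CMPK2 (0.00) and the exonuclease ISG20 (-0.07) were not called either. Of the remaining tested genes, IFI6 stood at 0.12 and LGALS3BP at 0.13.

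**Figure D4:**
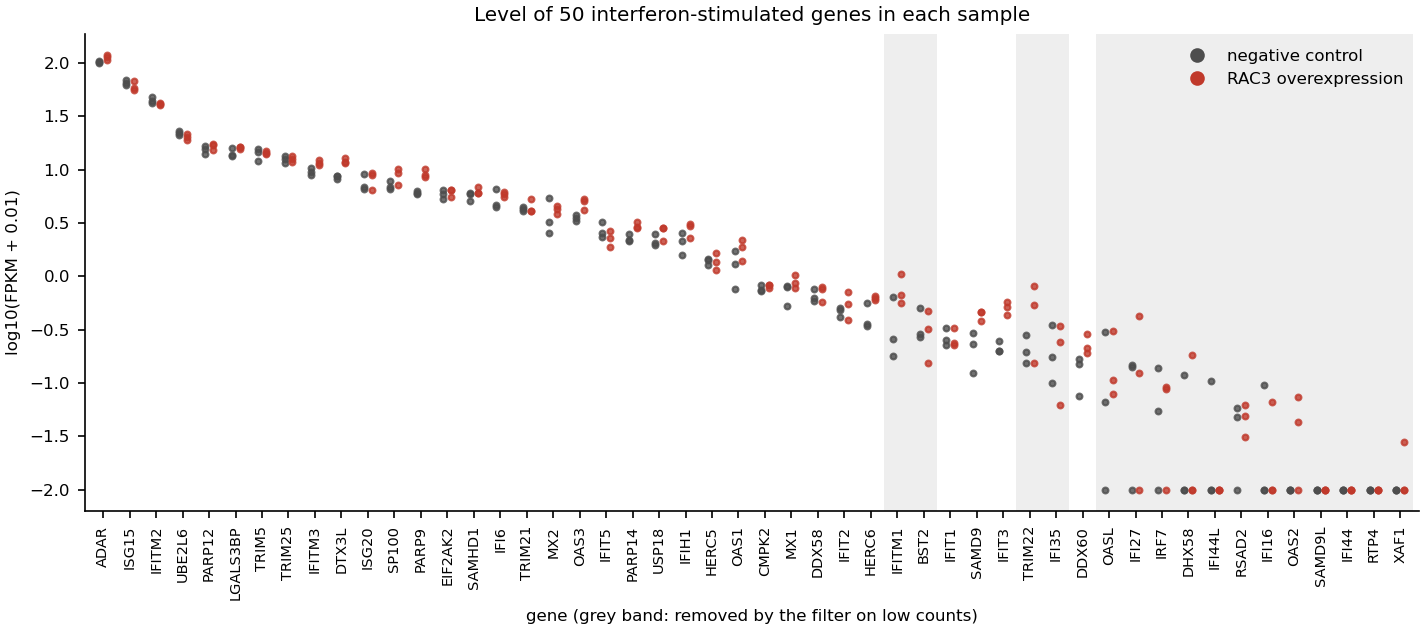
Level of each of the 50 interferon-stimulated genes in each sample, as log10(FPKM + 0.01), ordered by the control mean. Dark points are negative controls, red points RAC3 overexpression samples, and grey bands mark the 16 genes removed by the filter on low counts. Samples with 0 FPKM lie on the lowest line of points. ADAR is highest, at a control mean of 102 FPKM, and 3 genes are at 0 in every sample.

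By level, 8 genes had a mean of at least 10 FPKM in the controls. None of them was called, and 3 of them, ISG15, IFITM2 and UBE2L6, had an unadjusted p-value below 0.05 with RAC3 lower. Of the 17 genes between 1 and 10 FPKM, all were tested and 5 were called. Over all genes tested, at any level, 13.3% were called higher, and shares by level were not computed. Of the 22 genes below 1 FPKM in the controls with a count in any of the 6 samples, 9 were tested and SAMD9 alone was called. Precision followed the counts. The 24 tested genes with a mean of 50 counts or more had SEs of 0.0374 to 0.202 on the log2 scale, and the other 10 had SEs of 0.239 to 0.435. Of those 10, SAMD9 alone was called by edgeR.

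The 16 genes removed by the filter include well-known markers of an interferon response. SAMD9L, IFI44 and RTP4 had 0 counts in all 6 libraries. RSAD2, which encodes the antiviral enzyme viperin, had 0 to 3 counts per sample, IFI27 0 to 3, IFI44L 0 to 2, XAF1 0 to 1, IFI16 0 to 1, DHX58 0 to 3, OAS2 0 to 3 and IRF7 0 to 3. BST2, or tetherin, had 2 to 9 counts, IFI35 1 to 7, OASL 0 to 9, TRIM22 1 to 7 and IFITM1 1 to 10. No count of these 16 genes was above 10 in any sample, in controls or with RAC3.

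The signalling genes that stand upstream were read from the same fit. Of 20 interferon genes in the table, 19 had 0 counts in all 6 samples, so their transcripts were below the limit that a count of 0 allows. IFNA21 had 1 count, in control sample 2. The 9 genes for receptors, kinases and ISGF3 were all tested and none was called by edgeR, DESeq2 or limma-voom. In 2 of them the unadjusted p-value was below 0.05 with RAC3 higher and in 1 with RAC3 lower. STAT2 had a log2 fold change of 0.04 with a 95% interval from -0.14 to 0.21, and the groups overlapped. IRF9 stood at -0.01 (-0.21 to 0.20), also with overlapping groups. IFNAR1 had 57.3, 52.2 and 61.6 CPM in the controls and 63.9, 62.5 and 65.6 CPM in the RAC3 samples, without overlap. This was a log2 fold change of 0.16 (adjusted p = 0.0662 by edgeR). The call changed to higher without control sample 3 (adjusted p = 0.0286) and with scaling by library size alone, which also called JAK1, while the adjusted p of IFNAR1 reached 0.516 in other fits. IFNAR2 had 0.08, JAK1 0.09 and TYK2 -0.08, with adjusted p-values of 0.381, 0.123 and 0.297.

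Among the genes that induce interferon, 7 of 13 were tested. Of these, 2 were higher (28.6%, beside 13.3% of all genes tested) and 1 was lower (14.3%, beside 15.3%). The kinases TBK1 (0.25, adjusted p = 0.0126 by edgeR) and IKBKE (0.32, adjusted p = 0.0393) were higher, and their substrate IRF3, the factor that starts interferon transcription, was lower (-0.20, adjusted p = 0.0142). These 3 were named after their values were seen, and their calls were less stable. The counts of 2 higher and 1 lower became 0 and 0 without RAC3 sample 1, 1 and 0 without RAC3 sample 3, and 1 and 1 without control sample 1, control sample 3 or RAC3 sample 2. They were 1 and 0 after GC removal or with limma on FPKM, 1 and 1 with DESeq2, and 2 and 0 with scaling by library size alone. Of the 12 negative regulators, 11 were tested, 2 were higher and 2 were lower (18.2% each, beside 13.3% and 15.3% of all genes). SOCS1, which blocks JAK kinases and is itself induced by cytokines, had 3.58, 2.46 and 2.12 CPM in the controls and 4.67, 5.83 and 6.17 CPM in the RAC3 samples. Its log2 fold change of 1.04 (SE 0.225, adjusted p = 0.00193 by edgeR) was the largest of the regulators tested. The phosphatase PTPN1 stood at 0.23 (adjusted p = 0.00362). TRIM27 and IRF2BP2, also named after their values were seen, stood at -0.20 and -0.30. IRF2BP2 had 135, 107 and 92.2 CPM in the controls and 84.9, 95.9 and 89.8 CPM in the RAC3 samples, so its groups overlapped. Only 1 regulator was lower when any 1 of control samples 1, 2 and 3, RAC3 sample 1 or RAC3 sample 3 was left out, or with DESeq2 or library size alone, and 0 were lower with limma on FPKM.

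**Figure D5:**
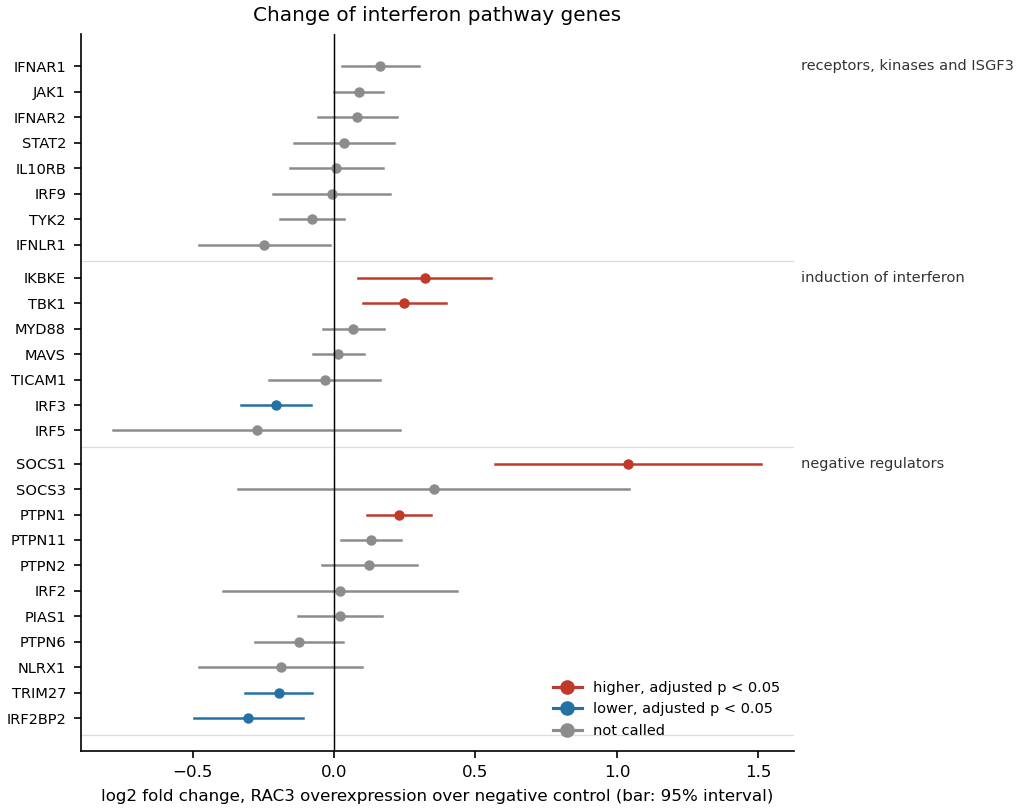
Log2 fold change, RAC3 overexpression over negative control, of tested genes for interferon receptors, kinases and ISGF3, for interferon induction and for negative regulation. Points are edgeR estimates, bars 95% intervals, red marks genes called higher and blue genes called lower at an adjusted p-value below 0.05. No gene shown of the first group is called, and SOCS1 lies farthest from 0.

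A further list of 51 interferon-stimulated genes outside the 50 gave 41 tested genes, of which 10 were higher (24.4%, beside 13.3% of all genes) and 2 were lower (4.88%, beside 15.3%), with a median log2 fold change of 0.04. The number higher fell to 5 without control sample 1, 6 without RAC3 sample 3 and 5 with limma on FPKM. APOL6, a lipid-binding apolipoprotein induced by interferon, had 0.931, 1.47 and 0.948 CPM in the controls and 1.91, 3.46 and 2.48 CPM in the RAC3 samples. The groups did not overlap, and the log2 fold change was 1.23 (SE 0.331, adjusted p = 0.00898 by edgeR). The call was lost without RAC3 sample 2 (0.97, adjusted p = 0.069) and with limma on FPKM (0.79, adjusted p = 0.114). APOL2 stood at 0.39, TDRD7 at 0.30, PNPT1 at 0.27, ZNFX1 at 0.25 and STAT3 at 0.19, all higher. APOL2 was called in all 16 other fits. TDRD7 lost its call without control sample 1, control sample 3 or RAC3 sample 3 (adjusted p up to 0.0582), PNPT1 after GC removal (0.0643), ZNFX1 with limma on FPKM (0.0712) and STAT3 without RAC3 sample 1 (0.0514). The RNA helicase MOV10 was lower, with 131, 123 and 123 CPM in the controls and 101, 97.9 and 102 CPM in the RAC3 samples, a log2 fold change of -0.32 (SE 0.0508, adjusted p = 0.000109). RNF213 was lower by the same test (-0.19), but not with limma on FPKM (adjusted p = 0.357). Over all pathway genes outside the 50, 14 of the 68 tested were higher (20.6%, beside 13.3%) and 5 were lower (7.35%, beside 15.3%). Leaving out control sample 1 left 8 higher, and leaving out RAC3 sample 1 or RAC3 sample 3 left 9 higher and 3 lower.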

How the data were processed

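RNA of 3 stable RAC3-overexpressing Huh-7 samples and 3 negative controls was sequenced after poly(A) selection with a kit that does not mark strand. The authors deposited raw counts per gene and FPKM per sample, and their group means were not used. The submitters' processing notes name Bowtie2 2.2.8, HISAT2, StringTie 1.3.1 and DESeq2 without roles, and the genome build is not given in the sources used here. For 31 of the genes, the length implied by FPKM and counts varied between samples by a factor of 1.00 to 1.65 (median 1.06), so the deposited FPKM were not proportional to the counts.

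The count table was fitted with edgeR 4.0.16 under R 4.3.3 (filterByExpr, TMM, quasi-likelihood F test, two-sided, no covariate, Benjamini-Hochberg over 12941 genes). The biological coefficient of variation was 0.0533. A call is an adjusted p below 0.05, and the study's thresholds are given beside it. Alternatives used DESeq2 1.42.0, limma 3.58.1 and, chosen after seeing the data, limma on log2(FPKM + 0.1), whose changes are on that scale. The fits were tested on simulated data. The sources call the samples independent RNA samples, so p-values measure the spread between these samples, and an exact permutation test of 3 against 3 cannot go below 0.1. Floors and intervals cover counting error and sample spread only. No batch is labelled.

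The 50 genes, the pathway lists and the tests were chosen with earlier results of these data known. Every gene of the 50 is accounted for. Values are given for genes called, for those past a fold change of 1.5, for the 5 highest in FPKM and not called, for the 10 pathway genes with the smallest p and for 6 signalling genes, with 1 more signalling gene counted but not reported here, and other genes were named after their values were seen. Gene positions are from GENCODE release 29 (GRCh38) and promoter windows from RefSeq (GRCh38.p14).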

Additional observations from a re-analysis of the deposited data

How the results depend on the processing

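In 16 other fits, PARP9, DTX3L and OAS3 were called higher every time. The number called higher (6) ranged from 5 to 6 when 1 sample was left out, and was 7 with library size only, 6 after GC removal (LGALS3BP in, PARP14 out) and 4 with limma on FPKM (IFIT3 in, PARP14, SAMD9 and SP100 out). The number lower stayed at 0 except without RAC3 sample 2 (1, ISG15), a range of 0 to 1. At the study's thresholds the number higher was 5 with library size only, 1 with DESeq2, 1 with at least 10 counts in every sample and 1 to 5 with 1 sample left out. Of the other pathway genes, 8 to 12 were higher and 3 to 5 lower with 1 sample left out, 8 and 1 with limma on FPKM, and 3 lower with library size only. The median log2 fold change of the 34 genes was 0.18 with library size only and 0.18 with limma on FPKM, where the median of all genes tested moved up by 0.056 in both fits, and 0.081 to 0.18 with 1 sample left out.

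Directions turned in small changes that were not called. After GC removal ISG15 stood at 0.018, IRF9 at 0.094 and TYK2 at 0.10. IRF9 stood at 0.048 with library size only and 0.044 with limma on FPKM, no more than the shift of 0.056 that all genes showed there. With 1 sample left out, IRF9 ran from -0.098 to 0.039. The cause of the other turns was not tested.

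Sample numbers did not pair the groups, since same-numbered samples had correlations of -0.087, -0.046 and -0.021 over 11221 genes. With the replicate number as a block, 6 of the 34 genes were called higher and 0 lower.

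Depth limits the list. Of 50 genes, 16 were too low to test and 10 more had SEs of at least 0.239.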

Other observations

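The genes around PARP9, DTX3L and PARP14 were examined after their values were seen. Within 300 kb there were 13 genes, all tested, of which 5 were higher and 2 were lower, beside 13.3% and 15.3% of all genes tested. Of the 5, 3 are the genes that prompted the look. The others were WDR5B (0.40 on the log2 scale, adjusted p = 0.0358 by edgeR) and SLC49A4 (0.27, adjusted p = 0.0123). FAM162A (-0.57, adjusted p = 0.00115) and SEMA5B (-0.92, adjusted p = 0.0292) were lower. PARP15, which lies between DTX3L and PARP14, had an estimate of 0.45 with an adjusted p of 0.316.

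Of the further interferon-stimulated genes, TNFSF10, which encodes the death ligand TRAIL, had 3.08, 2.198 and 3.79 CPM in the controls and 6.08, 4.80 and 3.69 CPM in the RAC3 samples. Its log2 fold change was 0.68 (adjusted p = 0.0382 by edgeR), although RAC3 sample 3 lay within the control range.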
